A study of Mus musculus with 2 samples.

Results

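Genes known from the epicardium, the mesothelial sheet that covers the heart, and the acute phase gene Saa3 were followed through the cell classes of infarcted and sham-operated mouse hearts. The 9 genes, Wt1, Lrrn4, Upk3b, Msln, Krt19, Cxadr, Clu, Saa3 and Calca, were taken by name, and all 9 were among the 21745 genes listed in both count tables. They had been selected on their measured levels in these same cell classes, so every value below is a description and carries no test. Drop-seq, a droplet method that labels each mRNA molecule so that it can be counted once (a UMI) and assigned to its cell, was run on hearts of male C57BL6/J wild-type mice aged 8 to 10 weeks. The MI library came from 1 heart taken 14 days after the left anterior descending artery was tied off. The sham library pooled 4 hearts taken 14 days after the same operation without tightening of the suture. Each group was 1 library, and no difference was checked in replicates. The series asked which cell populations the infarcted heart contains.

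The epicardium is quiet in the adult heart. After infarction it re-expresses developmental genes such as Wt1, and some of its cells leave the surface and take on a mesenchymal state. Serum amyloid A proteins are acute phase reactants made in the liver and, in the mouse, Saa3 is made mainly outside it, by macrophages, adipocytes and epithelia.

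The kept cells numbered 8294 in the MI library and 5969 in the sham library. Mesothelial cells were those with at least 3 UMIs of Msln and Upk3b together, 191 in MI and 77 in sham. The other classes were set by marker gates without the 9 genes, among cells with fewer than 3 UMIs of Msln and Upk3b together. MI held 3140 collagen-high cells, set beside 1798 fibroblasts in sham. Macrophages numbered 3853 in MI and 1426 in sham, and endothelial cells 354 in MI and 2251 in sham. Lymphocytes, 149 in MI and 44 in sham, should lack the epicardial genes and gave the background of free RNA. Median UMIs per cell in MI were 7825 in mesothelial cells, 5192.5 in collagen-high cells, 1696 in macrophages, 2984 in endothelial cells and 1341 in lymphocytes. In sham they were 2081 in mesothelial cells, 1483 in fibroblasts, 1363 in macrophages, 1304 in endothelial cells and 1312 in lymphocytes. The libraries shared 5 barcodes. Levels are UMIs summed over a class and given per 1000000 UMIs of that class (CPM). All intervals are 95% intervals that cover counting error only.

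The mesothelial label was checked first. The 3 mesothelial markers that are neither in the gate nor among the 9 genes were detected in MI mesothelial cells, where Upk1b was at 506 CPM, Bnc1 at 51.9 and Muc16 at 28.0. Upk1b was at 9.95 CPM, Bnc1 at 3.05 and Muc16 at 0.316 in MI collagen-high cells. Lrrn4 and Krt19 are mesothelial markers too, but they were selected on these cells and are not counted here. Fibroblast markers were present in the same cells. Of the 191 MI mesothelial cells, 164 (85.9%) also passed the collagen gate, against 20 of 77 (26.0%) in sham. That gate counts Col1a1, Col1a2 and Col3a1 in MI and also Dcn in sham, so the shares rest on unlike gates. Col1a1, Col1a2 and Col3a1 together reached 21267 CPM in MI mesothelial cells, 44690 CPM in MI collagen-high cells, 4625 CPM in sham mesothelial cells and 7876 CPM in sham fibroblasts. Collagen transcripts were also at 2634 CPM in MI lymphocytes and 1652 CPM in MI macrophages, against 91.0 CPM in sham lymphocytes and 70.0 CPM in sham macrophages. The part of free RNA in the shared collagen signal was not tested.

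Saa3 was high in MI mesothelial cells, collagen-high cells and macrophages, and its promoter is shown for that reason. Saa3 lies on the minus strand at chr7:46711998-46715700 (GRCm38). Promoters of 4 of the 9 genes (Lrrn4, Upk3b, Saa3 and Calca) were matched by symbol in RefSeq's GRCm38.p6 promoters. The Saa3 stretch, chr7:46715627-46715926 on the minus strand, runs from 250 bases before the annotated start to 50 after it. The capitals mark the letters TTATGCAA, a match on the opposite strand to TTGCNNAA, a C/EBP-like motif, that starts 99 bases before the start site.
Saa3: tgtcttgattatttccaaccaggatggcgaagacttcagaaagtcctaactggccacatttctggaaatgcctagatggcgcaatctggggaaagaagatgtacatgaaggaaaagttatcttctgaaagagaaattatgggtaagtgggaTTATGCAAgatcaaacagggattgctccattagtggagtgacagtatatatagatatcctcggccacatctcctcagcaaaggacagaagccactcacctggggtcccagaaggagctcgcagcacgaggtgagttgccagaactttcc
Both strands were searched, and 10.8% of 32851 promoters of the same length held such a match. Lrrn4 held 1, and Upk3b and Calca held none. An NF-kB-like motif (3 times G, any 5 bases, 2 times C) was in 50.8% of all promoters and not in these bases of Saa3. Upk3b held 4 matches to it, Calca 1 and Lrrn4 0. A match is a description of letters, not a binding site.

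**Figure D1:**
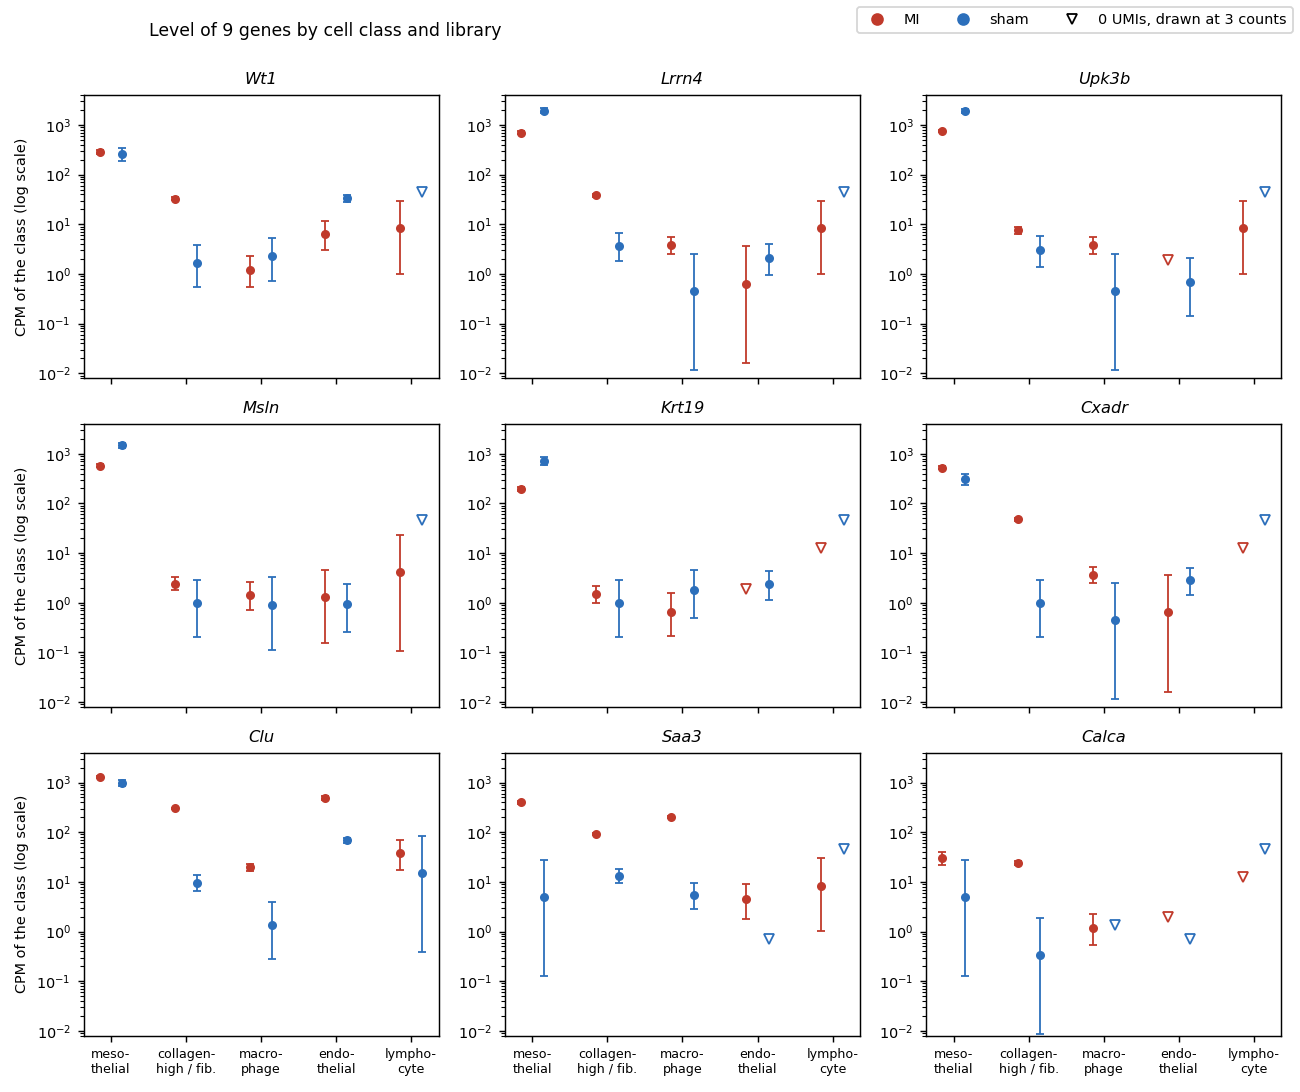
Level of each gene (CPM of the class, log scale) in 5 cell classes, MI in red left of sham in blue, with exact 95% Poisson intervals; open triangles mark classes with 0 UMIs, drawn at 3 counts, and "collagen-high / fib." sets MI collagen-high cells beside sham fibroblasts. Wt1, Lrrn4, Cxadr, Clu, Saa3 and Calca stand higher in MI collagen-high cells than in sham fibroblasts, and Saa3 is also high in MI macrophages.

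Outside mesothelium, Wt1, Lrrn4, Cxadr, Clu and Saa3 were at least 2-fold above MI lymphocytes in MI collagen-high cells. A gene at 0 UMIs in lymphocytes was set to 3 counts there. MI lymphocytes held 0 to 2 UMIs of each of these genes apart from Clu. The share of all genes that far above lymphocytes was not computed, so this is a description only. With gate thresholds doubled, 53 MI lymphocytes were left, 3 counts among them came to 31.3 CPM, and of the 5 genes Lrrn4 and Clu were still at least 2-fold above them. Wt1, Cxadr and Saa3 then had 0 UMIs in lymphocytes and did not reach 2-fold above that floor. Against sham fibroblasts, 8 of the 9 genes were at least 2-fold higher in MI collagen-high cells and 0 were at least 2-fold lower. Among all 13797 genes with at least 20 UMIs over both libraries, 13.2% were that much higher and 20.3% that much lower. The median log2 ratio was 3.37 over the 9 genes and -0.21 over all genes. The genes were picked with these cells in view, so the count is not independent evidence. Apart from Clu and Saa3, they reached 20 UMIs only through the MI cells. A higher level there thus follows in part from the minimum, and the count is not read against the shares over all genes. With 1 library a group, a change in the make-up of the collagen-high class and a change within its cells cannot be told apart.

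Wt1, the zinc finger transcription factor that marks the developing and the activated epicardium, lies at chr2:105126529-105173616 on the plus strand. In MI it reached 283 CPM (258 to 309) in mesothelial cells, 32.9 (30.3 to 35.5) in collagen-high cells, 6.42 (3.08 to 11.8) in endothelial cells and 1.19 (0.542 to 2.25) in macrophages. In sham it reached 258 CPM (192 to 339) in mesothelial cells, 33.8 (28.5 to 39.8) in endothelial cells, 2.26 (0.733 to 5.27) in macrophages and 1.67 (0.542 to 3.90) in fibroblasts. Both mesothelial classes were thus highest and did not differ beyond their intervals. MI collagen-high cells and sham endothelial cells came next, at levels whose intervals overlapped, and the remaining classes formed an overlapping low group with the 8.33 CPM (2 UMIs) of MI lymphocytes. The log2 ratio of MI collagen-high cells over sham fibroblasts was 4.30 (3.07 to 5.93), from 624 UMIs in MI and 5 in sham. Collagen-high cells held 53.6% of all 1165 Wt1 UMIs of kept MI cells, and endothelial cells 68.2% of the 211 of kept sham cells.

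Lrrn4, a leucine-rich repeat neuronal family protein used as a mesothelial marker, lies at chr2:132868305-132880891 on the minus strand. It was at 705 CPM (665 to 745) in MI mesothelial cells and 1953 (386 UMIs) in sham mesothelial cells, a log2 ratio of -1.47 (-1.64 to -1.30). In MI collagen-high cells it was at 38.0 CPM (35.3 to 40.9), against 3.67 (1.83 to 6.57) in sham fibroblasts, a log2 ratio of 3.37 (2.52 to 4.38). The sham value rests on 11 UMIs in 3 cells. The ratio was 5.97 with gate thresholds doubled and 6.93 with classes from clusters. Every other class was at or below 8.33 CPM, the value of 2 UMIs in MI lymphocytes. The direction of the MI to sham ratio thus ran opposite ways in mesothelial and in collagen-high cells.

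Cxadr encodes the coxsackievirus and adenovirus receptor, a cell adhesion protein of epithelial junctions, and lies at chr16:78301489-78359774 on the plus strand. It was at 526 CPM (492 to 562) in MI mesothelial cells and 309 (236 to 397) in sham mesothelial cells, with a log2 ratio of 0.77 (0.39 to 1.17). In MI collagen-high cells it was at 47.6 CPM (44.6 to 50.8), with a UMI in 355 of 3140 cells, against 1.00 (0.207 to 2.93) from 3 UMIs in sham fibroblasts. That log2 ratio was 5.57 (4.02 to 7.85). Cxadr shares 695 exon bases with Btg3 on the opposite strand. Whether reads were counted by strand was not given in the sources used here, so reads of the shared bases cannot be told apart.

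Upk3b, a uroplakin of the mesothelial surface, Msln, which encodes the cell-surface glycoprotein mesothelin, and Krt19, a keratin of simple epithelia, stayed close to the mesothelial class. Upk3b and Msln also define that class, so their height there follows from the gate. Their low level elsewhere follows from it in part, since the other classes hold only cells with fewer than 3 UMIs of them together. They lie at chr5:136038496-136046487 (plus), chr17:25748613-25754378 (minus) and, for Krt19, chr11:100140810-100148665 (minus). In mesothelial cells Krt19 was at 195 CPM (174 to 217) in MI hearts and 714 (601 to 841) in sham hearts, and the log2 ratio was -1.87 (-2.16 to -1.58). Upk3b was at 755 CPM in MI and 1918 in sham, and Msln at 573 in MI and 1478 in sham. In MI collagen-high cells Upk3b was at 7.58 CPM (6.40 to 8.93), Msln at 2.42 (1.77 to 3.23) and Krt19 at 1.47 (0.980 to 2.13). In sham fibroblasts Upk3b was at 3.01 CPM (1.37 to 5.71), and Msln and Krt19 were at 1.00 (0.207 to 2.93) with 3 UMIs each. The log2 ratios of Msln, 1.27 (-0.36 to 3.60), and Krt19, 0.56 (-1.14 to 2.92), had intervals across 0. With classes from clusters, Upk3b was at a log2 ratio of 2.34 and Krt19 at 2.40, and with gate thresholds doubled Msln was at 2.10. For Upk3b, Msln and Krt19, MI collagen-high cells did not exceed MI lymphocytes beyond the intervals.

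At the threshold, the 46 MI cells with exactly 2 UMIs of Msln and Upk3b had 205 CPM of Wt1 and 484 CPM of Lrrn4, and the 35 MI cells with exactly 3 had 191 CPM of Wt1 and 386 CPM of Lrrn4. Collagen transcripts were at 29368 CPM in the MI cells with 2 UMIs and 25120 CPM in those with 3. In sham, 6 cells had exactly 2 UMIs and 11 had exactly 3. In MI, cells just outside the gate were thus not lower in these genes than cells just inside it.

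Clu encodes clusterin, a secreted chaperone of injured and involuting tissue, and lies at chr14:65968483-65981547 on the plus strand. In MI it was at 1304 CPM in mesothelial cells (2238 UMIs), 490 (455 to 526) in endothelial cells, 305 (297 to 313) in collagen-high cells and 19.5 (16.5 to 22.9) in macrophages. In sham it was at 982 CPM in mesothelial cells (194 UMIs), 69.3 (61.6 to 77.6) in endothelial cells, 9.68 (6.49 to 13.9) in fibroblasts and 1.36 (0.279 to 3.96) in macrophages. It was the only one of the 9 genes at least 2-fold above lymphocytes in MI endothelial cells as well as in collagen-high cells. The log2 ratio of MI collagen-high cells over sham fibroblasts was 4.98 (4.45 to 5.55), and 10 sham fibroblasts held all 29 UMIs, 16 of them in 1 cell. That ratio was 6.76 with gate thresholds doubled and 6.75 with classes from clusters. The MI macrophage level did not exceed the 37.5 CPM (9 UMIs) of MI lymphocytes.

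Saa3 was found at high level in MI cells of 3 classes. It reached 400 CPM (370 to 431) in mesothelial cells, 201 (191 to 211) in macrophages and 91.5 (87.3 to 96.0) in collagen-high cells of MI, and 4.49 (1.81 to 9.25) in MI endothelial cells. In sham it was at 13.4 CPM (9.54 to 18.2) in fibroblasts, 5.42 (2.80 to 9.47) in macrophages and 5.06 (0.128 to 28.2) in mesothelial cells, with 0 UMIs in endothelial cells. The 3 high MI classes differed from each other and from every other class beyond their intervals. These intervals do not cover the spread between cells, which was large, as given below. The log2 ratio was 6.30 (3.82 to 11.61) in mesothelial cells, from 686 UMIs in MI and 1 in sham, and 2.78 (2.33 to 3.27) for collagen-high cells over fibroblasts. The second ratio was 3.56 with gate thresholds doubled and 3.58 without barcodes ending in N. Of the 703 stretches of 50 bases in the last 400 bases of Saa3 transcripts, 65 (9.25%) were shared with other genes, Saa1 among them.

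Few cells carried most of the Saa3. In MI collagen-high cells 173 of 3140 cells had a UMI, and the 10 highest held 45.1% of the 1738 UMIs, with up to 206 in 1 cell. In MI mesothelial cells 65 of 191 had a UMI and the 10 highest held 72.6% of 686 UMIs. In MI macrophages 214 of 3853 had a UMI and the 10 highest held 44.1% of 1527 UMIs. Without those 10 cells the levels were 118 CPM in mesothelial cells, 113 in macrophages and 50.5 in collagen-high cells. The gap between mesothelial cells and macrophages thus rested largely on those few cells. In sham fibroblasts 6 cells held all 40 UMIs.

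**Figure D2:**
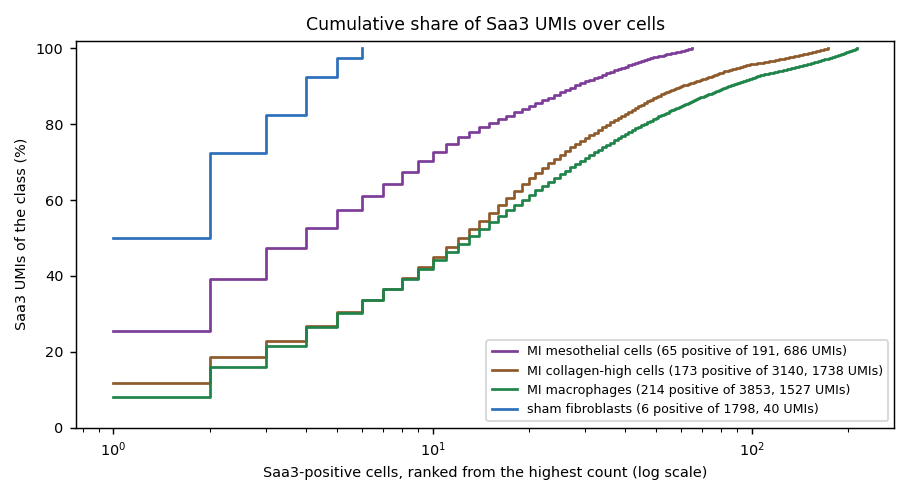
Cumulative share of a class's Saa3 UMIs (%, y axis) over its Saa3-positive cells ranked from the highest count (x axis, log scale) in 4 classes. The 10 highest cells reach 72.6% in MI mesothelial cells, 45.1% in MI collagen-high cells and 44.1% in MI macrophages, and 6 cells hold all sham fibroblast UMIs.

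Calca, which encodes calcitonin and, by alternative splicing, the neuropeptide CGRP, lies at chr7:114631478-114636357 on the minus strand. It was at 29.7 CPM (22.1 to 39.1) in MI mesothelial cells and 23.6 (21.5 to 25.9) in MI collagen-high cells, levels that did not differ beyond their intervals. Sham mesothelial cells and sham fibroblasts held 1 UMI each, 5.06 CPM (0.128 to 28.2) and 0.334 CPM (0.00846 to 1.86). The log2 ratio of MI collagen-high cells over sham fibroblasts was 6.15 (3.66 to 11.45), and 3.97 with gate thresholds doubled. Collagen-high cells held 86.7% of the 518 Calca UMIs of kept MI cells. UMI counts per gene do not tell calcitonin from CGRP transcripts. Of 1421 stretches of 50 bases in its last 400 bases, 1 was shared with the neighbouring paralog Calcb.

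**Figure D3:**
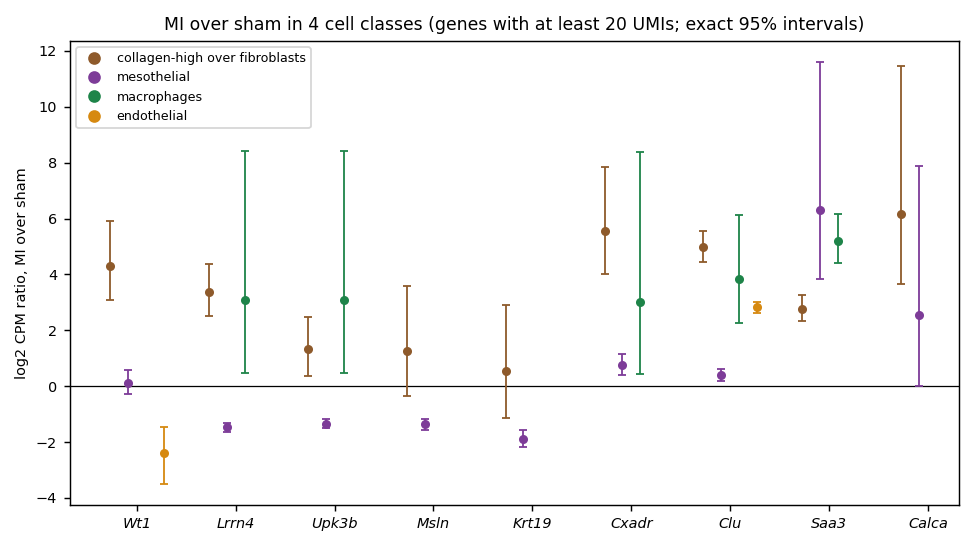
Log2 CPM ratio of MI over sham (y axis) for each gene in collagen-high cells over fibroblasts, mesothelial cells, macrophages and endothelial cells, with exact 95% intervals, for genes with at least 20 UMIs in the class. Wt1 is at 4.30 in collagen-high cells and -2.40 in endothelial cells, and Lrrn4, Upk3b, Msln and Krt19 lie below 0 in mesothelial cells.

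Within mesothelial cells, Lrrn4 and Krt19 were at least 2-fold lower in MI than in sham. Of the 8622 genes measured, 15.2% were that much lower and 16.9% that much higher. Saa3 and Calca were at least 2-fold higher, with 1 UMI each in sham. Both reached the minimum of 20 UMIs only through the MI cells, so their higher level follows in part from the minimum and is not counted. The log2 ratio of Calca was 2.55 (0.011 to 7.89). Wt1 had a log2 ratio of 0.13 (-0.29 to 0.58). The log2 ratios of Upk3b, -1.35, and Msln, -1.37, are not read as differences, because the gate asks for 3 UMIs of these genes. A cell at the sham median of 2081 UMIs needs a higher CPM to reach them than a cell at the MI median of 7825. Lrrn4, Krt19 and the mesothelial and epicardial list below depend on the same gate. In MI cells with exactly 3 UMIs of the gate genes, Lrrn4 was at 386 CPM and Krt19 at 39.8. With 5 or more, Lrrn4 was at 795 CPM and Krt19 at 251 in MI, and at 1996 and 745 in sham. The part of the gate in their lower level was not tested.

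The collagen gate, which counts Dcn in sham but not in MI, split these cells. Outside it were 27 MI and 57 sham mesothelial cells, and among them the log2 ratio was -1.53 for Lrrn4, -0.98 for Upk3b, -0.44 for Msln and -0.39 for Krt19. Krt19 was at 592 CPM in those MI cells and 773 in those sham cells. Lrrn4 was at 650 CPM in those MI cells and 1871 in those sham cells. Of the lower genes, Lrrn4 alone was thus still at least 2-fold lower outside the collagen gate. Inside the gate the ratio was -1.65 for Lrrn4 and -1.84 for Krt19. Of 17 measured genes of a mesothelial and epicardial list, 13 were at least 2-fold lower in MI mesothelial cells and 1, Dmkn, was higher. Outside the collagen gate 10 of the 17 were lower and Dmkn was higher. Among the lower were Igfbp5, an insulin-like growth factor binding protein, at 1124 CPM in MI and 8314 in sham, and Aldh1a2, a retinoic acid synthesis enzyme, at 125 CPM in MI and 541 in sham. All 7 activated fibroblast genes, among them Fn1 (fibronectin) and Acta2 (smooth muscle actin), were at least 2-fold higher. They had 0 to 14 UMIs each in sham mesothelial cells and reached 20 UMIs only through the MI cells. Their higher level thus follows in part from the minimum. Postn, Cthrc1, Tnc and Col11a1 had 0 UMIs in sham, set to 3 counts. Fn1 was at 1441 CPM in MI and 70.8 in sham. For 3 of the 7, MI mesothelial cells did not exceed MI lymphocytes beyond the intervals. Postn was at 135 CPM in MI mesothelial cells and 200 in MI lymphocytes, Cthrc1 at 85.7 in MI mesothelial cells and 75.0 in MI lymphocytes, and Col11a1 at 45.5 in MI mesothelial cells and 41.7 in MI lymphocytes. Acta2 was at 248 CPM in MI mesothelial cells and 142 in MI lymphocytes, and Fn1 in MI lymphocytes was at 250 CPM. Outside the collagen gate 3 of the 7, Fn1, Acta2 and Tagln, were at least 2-fold higher in MI than in sham. Postn, Cthrc1, Tnc and Col11a1 had 1 to 6 UMIs each in those MI cells and 0 in those sham cells.

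In macrophages, 9.06% of the 11688 genes with at least 20 UMIs were at least 2-fold higher in MI than in sham and 12.1% lower. Of the 9 genes, Lrrn4, Upk3b, Cxadr, Clu and Saa3 had that many UMIs, each through the MI cells, so that their higher level in MI follows in part from the minimum and is not counted. The other members had few UMIs. Wt1 had 9 UMIs in MI and 5 in sham, Krt19 had 5 in MI and 4 in sham, Msln had 11 in MI and 2 in sham, and Calca had 9 in MI and 0 in sham. Saa3 had a log2 ratio of 5.21 (4.40 to 6.17), from 1527 UMIs in MI and 12 in sham. Lrrn4 and Upk3b had 29 UMIs each and Cxadr 28 in MI, against 1 each in sham, so their levels in MI macrophages, 3.69 to 3.82 CPM, were below the 8.33 CPM of Lrrn4 and Upk3b in MI lymphocytes. Cxadr had 0 UMIs in MI lymphocytes, which allows up to 12.5 CPM. In MI endothelial cells Lrrn4 and Cxadr were at 0.642 CPM and Upk3b had 0 UMIs, which allows up to 1.93 CPM from 3 counts. These values lie on both sides of the MI macrophage levels, so whether the 3 genes were above free RNA there could not be settled. Saa3 in MI macrophages was far above the 8.33 CPM (2 UMIs) of MI lymphocytes.

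In endothelial cells, Clu and Wt1 reached 20 UMIs and went opposite ways, with 10.4% of 11559 genes at least 2-fold higher in MI and 15.2% lower. Clu had a log2 ratio of 2.82 (2.63 to 3.02) and Wt1 one of -2.40 (-3.49 to -1.48), from 10 UMIs in MI and 144 in sham. The endocardial markers Npr3 (a natriuretic peptide receptor) and Cytl1 (a secreted cytokine-like protein) moved with Clu. A UMI of either was seen in 105 of 354 MI endothelial cells (29.7%) and 137 of 2251 sham endothelial cells (6.09%). In MI, Clu was at 927 CPM (852 to 1006) in endothelial cells with such a UMI and 205 (178 to 236) in those without. In sham it was at 615 CPM (534 to 706) with and 23.2 (18.7 to 28.4) without. Clu was thus higher in MI on both sides of that split. Wt1 in sham was at 18.1 CPM (6.64 to 39.4) in cells with such a UMI and 35.1 (29.5 to 41.5) in cells without, so it was not confined to the endocardial side. Median depth was 2984 UMIs in MI and 1304 in sham endothelial cells.

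Because depth differed between the classes, each cell was also thinned to 500 UMIs before counting the cells with a UMI, and no cell was left out. In MI collagen-high cells the share was 1.75% (1.32 to 2.27) for Wt1, 1.85% (1.41 to 2.38) for Lrrn4, 2.45% (1.94 to 3.06) for Cxadr, 9.55% (8.55 to 10.6) for Clu, 2.01% (1.55 to 2.56) for Saa3 and 1.05% (0.725 to 1.47) for Calca. In sham fibroblasts it was 0.0556% for Wt1, 0.278% for Clu and for Saa3, and 0 of 1798 cells for Lrrn4, Cxadr and Calca. The intervals of MI collagen-high cells and sham fibroblasts overlapped for Msln and Krt19 and not for the other members. No share over all genes was computed beside this, so it is a description only. In MI lymphocytes 0 of 149 cells had a thinned UMI of Wt1, Lrrn4, Cxadr or Calca, which allows a share of up to 2.01% from 3 counts, and 2 cells (1.34%) had one of Clu, of Saa3 and of Upk3b. The lymphocytes were thus too few to bound the background below the shares of Wt1, Lrrn4 and Calca. The same held for Saa3, whose interval in lymphocytes was 0.163 to 4.76%. For Cxadr the exact upper limit in lymphocytes, 2.445%, lay within the interval of MI collagen-high cells. In MI macrophages the share was 0.0519% for Wt1, 0.311% for Lrrn4, 0.182% for Cxadr and 0.0779% for Calca, each below that of MI collagen-high cells with intervals that did not overlap. Before thinning, 10.8% of MI collagen-high cells had a Wt1 UMI.

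Wt1 and the other genes were found in the same collagen-high cells. Of the 3140 MI collagen-high cells, 340 had a Wt1 UMI, 146 of them at least 2 and the highest 7. Cells with both Wt1 and another of the 8 genes were counted beside the number expected from the shares within 10 bins of UMIs per cell. For all 8 genes the observed number was at least 2 times the expected one, a ratio not computed for genes beyond the members. Lrrn4 was seen with Wt1 in 140 cells, 4.68 times the expected number, and in 41.2% (35.9 to 46.6) of Wt1-positive against 4.18% (3.47 to 4.99) of Wt1-negative cells. Cxadr was in 57.4% of Wt1-positive and 5.71% of Wt1-negative cells, with a ratio of 4.46. Clu was in 80.0% of Wt1-positive and 17.3% of Wt1-negative cells, with a ratio of 3.06. These were the most frequent companions of Wt1. The acute phase gene followed, with Saa3 in 20.3% of Wt1-positive and 3.71% of Wt1-negative cells, 3.30 times the expected number. Calca was in 17.4% of Wt1-positive and 1.96% of Wt1-negative cells, with a ratio of 4.57. Upk3b was in 17.1% of Wt1-positive and 1.89% of Wt1-negative cells, with a ratio of 4.36. Msln (17 cells, 3.42) and Krt19 (6 cells, 2.45) rested on few cells. Wt1-positive cells were deeper, with a median of 6721 UMIs against 5058 in Wt1-negative cells.

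**Figure D4:**
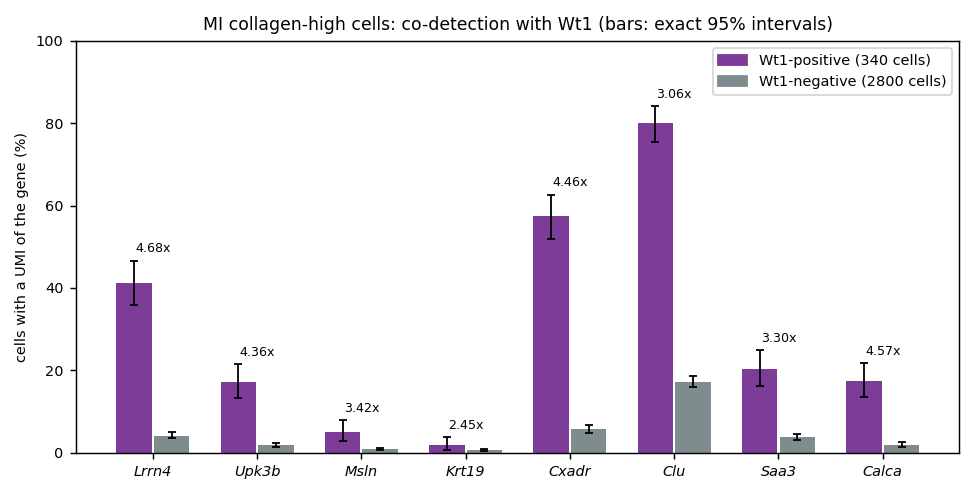
Share of MI collagen-high cells with a UMI of each gene (%, y axis) among 340 Wt1-positive (purple, left) and 2800 Wt1-negative cells (grey, right), with exact 95% intervals; the number over each pair is the observed over the expected number of cells with both genes. Each purple bar stands above its grey neighbour, and the ratios run from 2.45 (Krt19) to 4.68 (Lrrn4).

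In the other classes joint detection was hard to measure. In MI mesothelial cells 81.7% of the cells had at least 4 of the 7 genes outside the gate, which leaves little room above the expected number, and in sham mesothelial cells 35.1% had. There the ratios were 0.97 to 1.07 over the 8 genes in MI and 0.91 to 1.07 in sham for the 6 genes seen in more than 1 cell. In sham fibroblasts, 5 cells had Wt1, and Lrrn4, Upk3b and Clu were each seen in 1 of them. Those counts were 180 times (Lrrn4), 29.9 times (Upk3b) and 25.7 times (Clu) the expected number, ratios that rest on 1 cell each. In MI macrophages, 0 of the 9 Wt1-positive cells had a UMI of any other member. In sham endothelium, 120 cells had Wt1. Only 9 of them had Clu, 0.93 times the expected number, and at most 1 had any other member. Counting the 7 genes outside the gate, at least 3 were seen together in 328 (10.4%) of the MI collagen-high cells, 0 MI macrophages, 0 MI endothelial cells, 2 sham fibroblasts and 0 sham endothelial cells. Depth differed between these classes, as given above.

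Most of the Wt1-positive collagen-high cells lacked the gate genes: 268 of 340 (78.8%) had no UMI of Msln or Upk3b. Cells with at least 3 such UMIs had already been placed in the mesothelial class, and 149 of these in MI had Wt1. The share without the gate genes thus follows in part from the gate. Clustering placed 277 of the 340 (81.5%) in 1 cluster that held 540 (17.2%) of the collagen-high cells and 183 of the 191 MI mesothelial cells. That cluster was built from all variable genes, so its make-up is a description only.

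Saa3 was followed in the same way. In MI collagen-high cells, Saa3-positive cells had Lrrn4 in 41.0%, Cxadr in 50.3% and Clu in 65.9%, and co-detection with the 8 other genes was 2.61 to 4.83 times the expected number. In MI mesothelial cells the ratio was 1.76 for Calca, from 14 cells, and 0.92 to 1.04 for the other 7 genes. In MI macrophages, Saa3 was seen with Wt1, Lrrn4 and Krt19 in 0 cells, with Upk3b, Msln and Calca in 1 each, with Cxadr in 2 and with Clu in 11 cells, where 7.81 were expected. The epicardial genes thus accompanied Saa3 in collagen-high cells, and MI macrophages held too few UMIs of them to measure a link or its absence.

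Genes beyond the 9 that separated Wt1-positive from Wt1-negative MI collagen-high cells were ranked by the bound of the depth-matched CPM ratio nearest to 1. In Wt1-positive cells, 6 of the 6 other members with at least 100 UMIs stood at least 2-fold higher. Among all 10104 genes with as many UMIs, 4.98% were that much higher and 4.96% that much lower. The members were picked with these cells in view, so their count is a description only. The highest included Wnt4, a secreted Wnt ligand, at 115 CPM in Wt1-positive and 5.64 in Wt1-negative cells. Enpp2, or autotaxin, which makes lysophosphatidic acid, was at 172 CPM in Wt1-positive and 10.3 in Wt1-negative cells. Upk1b, a uroplakin, was at 41.9 CPM in Wt1-positive and 3.12 in Wt1-negative cells. Ptger3, a prostaglandin E2 receptor, had the largest log2 ratio of the 10 at 4.60 (3.95 to 5.30), followed by Wnt4 at 4.34 (4.02 to 4.68). Aox3, Hoxa5, Fam110c, Celf4, Npl and Angptl7 completed the 10, with log2 ratios of 3.24 to 4.23. Among the lowest were Rgs5, a pericyte marker, at 3.30 CPM in Wt1-positive and 116 in Wt1-negative cells, and Comp, a cartilage matrix protein, at 4.04 in Wt1-positive and 101 in Wt1-negative cells. Wfdc18, Wisp2, Col8a1 and Tbx20 followed with log2 ratios of -4.35 to -3.11. Asb5, Olfr558 and Olfr78 had 0 UMIs in Wt1-positive cells.

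**Figure D5:**
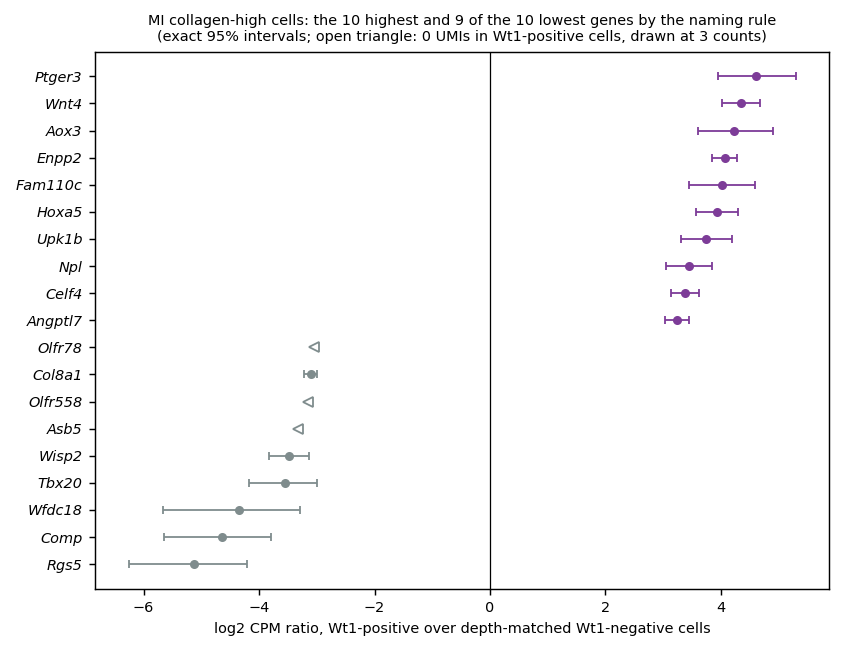
Log2 CPM ratio (x axis) of Wt1-positive over depth-matched Wt1-negative MI collagen-high cells for the 10 highest and 9 of the 10 lowest genes by the naming rule, with exact 95% intervals; open triangles mark genes with 0 UMIs in Wt1-positive cells, drawn at 3 counts. Ptger3 at 4.60 and Wnt4 at 4.34 head the list, and Rgs5 at -5.13 ends it.

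Among the gene lists, 9 of 13 measured mesothelial and epicardial genes were at least 2-fold higher in Wt1-positive collagen-high cells and 2, Tcf21 and Bcam, lower, with a median log2 ratio of 2.88 against 0.01 over all genes. Tcf21, a transcription factor of epicardium and resident fibroblasts, was at 7.71 CPM in Wt1-positive and 36.7 in Wt1-negative cells. Of 8 acute phase genes, 4 were higher and 0 lower: Cxcl1 (a neutrophil chemokine), C3 (complement), Nfkbiz (an NF-kB regulator) and Steap4 (a metalloreductase). Cxcl1 was at 368 CPM in Wt1-positive and 43.8 in Wt1-negative cells, and C3 at 409 in Wt1-positive and 68.7 in Wt1-negative cells. Activated fibroblast genes split, with Postn, Cthrc1 and Col11a1 lower, Tnc higher and 3 of the 7 within 2-fold. Postn (periostin) was at 592 CPM in Wt1-positive and 3131 in Wt1-negative cells. Dcn (decorin) was the 1 of 6 measured resting fibroblast genes at least 2-fold higher, at 3895 CPM in Wt1-positive and 1458 in Wt1-negative cells. Of 8 measured epithelial-to-mesenchymal factors, 0 were higher and 1, Snai2, lower. Among the 5 measured receptors of the secreted members, Trem2 was higher and Calcrl lower. In both the Wt1-positive and the Wt1-negative cells the mesenchymal filament gene Vim (vimentin) was above 2100 CPM.

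Against sham fibroblasts, the same lists gave another picture for MI collagen-high cells as a whole. Of 17 mesothelial and epicardial genes, 8 were at least 2-fold higher and 3, Tcf21, Aldh1a2 and Cldn15, lower. The 8 had 1 to 9 UMIs each in sham fibroblasts and reached 20 UMIs only through the MI cells. Their higher level thus follows in part from the minimum. For Krt7, 1 of the 8, the log2 ratio of 1.24 (-0.74 to 4.35) has an interval across 0. Of 9 acute phase genes, Hp (haptoglobin) and Il6 were higher and 5 lower. Hp had 12 and Il6 9 UMIs in sham fibroblasts, so both reached the minimum only through the MI cells. C3 was at 141 CPM in MI collagen-high cells and 1229 in sham fibroblasts. All 7 activated fibroblast genes were at least 2-fold higher and all 7 resting fibroblast genes at least 2-fold lower. Of the activated genes, Cthrc1, Acta2, Tagln, Tnc and Col11a1 had 8 to 19 UMIs in sham fibroblasts. They too reached the minimum only through the MI cells. Among the resting genes, Dcn is in the gate of sham fibroblasts and not in that of MI collagen-high cells. The lower level of Dcn in MI thus follows in part from the gates. Of 8 epithelial-to-mesenchymal factors, Cdh2 (N-cadherin) was higher and Zeb1 and Zeb2 lower. Of 7 receptors, Trem2 and Lrp8 were higher and Calcrl, Tlr2 and Tlr4 lower. The log2 ratio of Lrp8, 1.24 (-0.40 to 3.57), rests on 3 sham UMIs and its interval spans 0. That of Trem2 rests on 1 sham UMI. Trem2 is a macrophage receptor, at 597 CPM in MI macrophages and 106 in sham macrophages, and its 10.0 CPM in MI collagen-high cells stands beside 8.33 CPM in MI lymphocytes. Calcrl, the receptor core for CGRP, was highest in endothelial cells, at 178 CPM in MI and 208 in sham.

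The cells that carried Saa3, Clu and Calca were compared with those that lacked them in the same depth-matched way, in splits chosen after values had been seen. Among MI collagen-high cells, 3.34% of 10104 genes were at least 2-fold higher and 3.93% at least 2-fold lower in Saa3-positive cells. All 6 other members with at least 100 UMIs were higher. Cxcl13, a B cell chemokine, was at 366 CPM in Saa3-positive and 9.0 in Saa3-negative cells, and Slpi, a protease inhibitor, at 133 in Saa3-positive and 7.66 in Saa3-negative cells. In Clu-positive cells, 6 of 6 such members were higher, beside 3.89% of all genes higher and 1.79% lower. In Calca-positive cells, 6 of 6 were again higher, beside 5.66% of all genes higher and 8.66% lower. Calcb, the neighbouring CGRP gene, was at 99.2 CPM in Calca-positive and 1.65 in Calca-negative cells. The Saa3, Clu and Calca splits reuse the same pairs of members, which were picked with these cells in view. The counts of 6 of 6 are thus a description and not independent evidence.

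Among MI macrophages, 1.59% of 7086 genes were at least 2-fold higher in Saa3-positive cells and 4.36% lower, and Clu, the 1 other member with at least 100 UMIs, was within 2-fold. Prg4, which encodes lubricin, was at 215 CPM in Saa3-positive and 5.35 in Saa3-negative cells. Marco, a scavenger receptor, was at 361 CPM in Saa3-positive and 12.9 in Saa3-negative cells, and Arg1 (arginase) at 1218 in Saa3-positive and 204 in Saa3-negative cells. Slpi was among the 10 highest genes here too, at 168 CPM in Saa3-positive and 6.90 in Saa3-negative cells. The neutrophil gene S100a9 was lower, at 9.07 CPM in Saa3-positive and 219 in Saa3-negative cells.

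In sham endothelium, 0.449% of 6007 genes were at least 2-fold higher in Wt1-positive cells and 2.3% lower, and Clu, the 1 member with at least 100 UMIs, was within 2-fold. Npr3 was at 12.1 CPM in Wt1-positive and 220 in Wt1-negative cells, and Lyve1, a lymphatic marker, at 2.42 in Wt1-positive and 69.9 in Wt1-negative cells. Apln, a ligand of angiogenic tip cells, was at 174 CPM in Wt1-positive and 89.5 in Wt1-negative cells. Markers of endocardium and lymphatics were thus low in the Wt1-positive cells.

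Over the 10 sums of class and library, the genes whose log2(CPM + 1) followed Wt1 most closely were Rasl11a (r = 0.97), Fgf1 (0.96), Lyplal1 (0.94), Nxnl2 (0.93) and Plekha7 (0.93). Those most like Saa3 were Smim3 (r = 0.95), Cstb (0.93), Soat1 (0.93), Ufsp2 (0.92) and Hp (0.90). Between Wt1 and Saa3 themselves r was 0.29, and between Wt1 and the other members it was 0.71 (Calca) to 0.88 (Lrrn4). These are descriptions over 10 sums that share 2 libraries and their free RNA, with no test.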

How the data were processed

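The authors deposited raw UMI counts per gene and barcode as 1 table for each library. The submitters' processing notes name mm10 and Seurat with no role; aligner, counting program and strand setting were not given in the sources used here. MI held 8555 barcodes and 33275336 UMIs (median 2466 per barcode), and sham 6337 barcodes and 11307405 UMIs (median 1424). No barcode had under 500 genes, a limit set before deposit. Barcodes with under 200 genes or over 25% mitochondrial UMIs were removed, and so were doublets called by scrublet in scanpy 1.11.5, 147 in MI (1.74%) and 334 in sham (5.30%).

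Gates used UMIs per 10000 of each cell. Collagen-high cells had at least 100 of Col1a1, Col1a2 and Col3a1, and sham fibroblasts at least 100 of these and Dcn. Endothelial cells had at least 50 of 8 markers, macrophages at least 50 of 9, and lymphocytes at least 3 UMIs of 8. Thresholds sat at the low point of each distribution of marker sums. The mesothelial gate took precedence, and cells passing several other gates were left out. Clusters came from leidenalg 0.10.2 at resolution 0.8.

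CPM have exact Poisson intervals, shares exact Clopper-Pearson intervals, and ratios exact conditional binomial intervals. A gene at 0 UMIs was set to 3 counts over the class. No p-value was computed. The interval and co-detection steps were tested on simulated data. Named genes beyond the 9 were the 10 highest and 10 lowest in Wt1-positive over Wt1-negative MI collagen-high cells by the interval bound nearest to 1, the 5 most correlated with Wt1 and with Saa3, and members of 6 lists; 1 of the 10 lowest is not reported here. Mitochondrial, ribosomal protein, hemoglobin, Y-linked, Xist, Gm and Rik genes stayed out of the rankings. The members and lists were chosen with earlier results of these data known. Python 3.11.15, numpy 2.4.6 and scipy 1.17.1 were used. Coordinates are those of the GRCm38 annotation, which is mm10.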

Additional observations from a re-analysis of the deposited data

Results flagged for a closer look

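For 3 genes the MI to sham ratio ran one way in some cell classes and the other way in others, each with intervals that exclude 0. These differences between classes were not tested, since each class has 1 library per group. Wt1 had a log2 ratio of 4.30 in collagen-high cells over fibroblasts and -2.40 in endothelial cells. Lrrn4 had 3.37 in collagen-high cells over fibroblasts, 3.08 in macrophages and -1.47 in mesothelial cells. Upk3b had 1.34 in collagen-high cells over fibroblasts, 3.08 in macrophages and -1.35 in mesothelial cells, and it is 1 of the genes that define the mesothelial class. The macrophage values rest on 1 UMI each in sham, and their MI levels, 3.82 CPM, were below the 8.33 CPM (2 UMIs) of MI lymphocytes, as was Upk3b in MI collagen-high cells. For Upk3b, then, no direction is read outside mesothelium. Its mesothelial ratio is not read as a difference either, because of the gate, so its opposite signs are not read as a result.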

How the results depend on the processing

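Of 811 single-gene values under the alternatives, 707 kept their direction and moved less than the counting interval of the main value, 103 moved by more and 1 reversed. The reversed value was the log2 ratio of Clu in mesothelial cells, -0.077 among cells outside the collagen gate. With gate thresholds doubled, 2 instead of 5 genes in MI collagen-high cells were at least 2-fold above MI lymphocytes, since 53 lymphocytes were left and the floor of 3 counts rose to 31.3 CPM. Without cells holding a UMI of Msln or Upk3b, 5 instead of 8 genes were co-detected with Wt1 at 2 or more times the expected number, since Msln and Upk3b then have no UMI, and Krt19 was at 1.39 times. Calca could not be compared in mesothelial cells split by the collagen gate where sham had 0 UMIs. Some ratios of collagen-high cells over fibroblasts moved: Lrrn4 was at 6.93 and Clu at 6.75 with classes from clusters, and Saa3 was at least 5.65 without the 10 highest Saa3 cells of each class, which leaves 0 Saa3 UMIs in sham fibroblasts by construction because 6 cells held them all, an alternative chosen after seeing the data, as were those leaving out Rgs5-positive cells and splitting mesothelial cells. No paired analysis was possible because each group is 1 library. Counts of 1 to 12 UMIs in sham classes limit most ratios.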
